A study of Mus musculus with 10 samples.

Results

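The genes described here are 10 genes of the circadian clock, Arntl, Clock, Per1, Per2, Per3, Cry1, Nr1d1, Nr1d2, Dbp and Tef. They were taken by gene name from 51826 genes listed for each mouse, of which 33120 have an exon length, and all 10 were found and passed the filter on low counts in every comparison. RNA-seq libraries of inguinal white adipose tissue (iWAT) from 10 male C57BL/6 mice, 1 library per mouse, formed 4 groups. The F1 groups were 3 offspring of fathers fed a control diet (CD) and 3 offspring of fathers fed a low-protein diet (LPD), called pLPD offspring, killed at 5 weeks of age. The fathers had received their diet from weaning, mothers were fed the CD, the offspring themselves were fed the CD, and the offspring within an F1 group had different mothers. The F0 groups were 2 CD-fed and 2 LPD-fed males, which ate the diet themselves from weaning at 3 weeks and were killed at 10 to 12 weeks of age. The labels give each generation its own age and its own set of libraries, so these 3 cannot be told apart where F1 and F0 differ. The hour at which mice were killed is not given in the sources used here.

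The circadian clock is a loop of transcription and repression that runs with a period of about a day in most cells. ARNTL, also called BMAL1, and CLOCK form a dimer that binds E-boxes and activates the Per and Cry genes, the Nr1d genes and the PAR bZIP genes Dbp, Tef and Hlf. PER and CRY proteins return to the nucleus and repress that dimer, while NR1D1 and NR1D2, the REV-ERB nuclear receptors, repress Arntl through RORE elements, so Arntl peaks when Dbp and the Nr1d genes are low. In white adipose tissue the clock is known to pace lipid storage, lipolysis and the release of leptin, and the transcripts of this loop swing widely with the hour of the day.

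Promoter sequences are shown because the loop acts through short motifs near its members' starts. RefSeq promoter windows of GRCm38.p6, the assembly also called mm10, run from 250 bases before to 50 bases after a start. They were found for 9 of 10 members, Per2 being the exception. Motifs were searched on both strands: the E-box CACGTG, the E-box variant CACGTT, the D-box bound by DBP and TEF in the forms TTATGTAA and TTACGTAA, and the RORE core in the forms AAAGGTCA, TAAGGTCA, ATAGGTCA and TTAGGTCA. A RORE form with AGT before the core, AGTAGGTCA or AGTAGGTTA, was added after the windows had been read. No motif overlaps another in the windows shown, where capitals mark the motif and each sequence is written 5′ to 3′ on the strand of its gene. The first is Arntl at chr7:113207261-113207560 (plus strand), with the added RORE form at −8 and 29 relative to the start, whose first transcribed base is 1. Per1 follows, at chr11:69098699-69098998 (plus strand), with an E-box at −166. Per3 at chr4:151044616-151044915 (minus strand) holds a D-box at −205 and another at −158. Nr1d1 at chr11:98775328-98775627 (minus strand) holds an E-box variant at −28, and Tef at chr15:81802423-81802722 (plus strand) holds an E-box at −127.
Arntl: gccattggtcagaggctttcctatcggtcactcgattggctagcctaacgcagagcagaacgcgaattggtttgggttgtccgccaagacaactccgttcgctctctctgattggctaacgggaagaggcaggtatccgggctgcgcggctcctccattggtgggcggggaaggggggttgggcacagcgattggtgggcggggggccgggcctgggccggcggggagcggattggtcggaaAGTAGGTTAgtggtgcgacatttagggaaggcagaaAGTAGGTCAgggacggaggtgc
Per1: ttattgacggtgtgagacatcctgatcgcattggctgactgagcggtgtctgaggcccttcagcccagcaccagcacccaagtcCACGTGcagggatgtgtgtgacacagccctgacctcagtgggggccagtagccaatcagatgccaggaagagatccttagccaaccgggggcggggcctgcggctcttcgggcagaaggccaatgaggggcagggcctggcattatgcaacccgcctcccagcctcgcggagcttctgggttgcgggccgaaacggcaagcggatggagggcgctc
Per3: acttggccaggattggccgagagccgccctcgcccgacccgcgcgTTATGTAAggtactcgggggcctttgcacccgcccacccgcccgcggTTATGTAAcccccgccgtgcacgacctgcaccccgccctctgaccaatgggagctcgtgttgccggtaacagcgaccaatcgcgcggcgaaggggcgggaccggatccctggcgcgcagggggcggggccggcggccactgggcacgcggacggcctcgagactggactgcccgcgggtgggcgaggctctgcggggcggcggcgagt
Nr1d1: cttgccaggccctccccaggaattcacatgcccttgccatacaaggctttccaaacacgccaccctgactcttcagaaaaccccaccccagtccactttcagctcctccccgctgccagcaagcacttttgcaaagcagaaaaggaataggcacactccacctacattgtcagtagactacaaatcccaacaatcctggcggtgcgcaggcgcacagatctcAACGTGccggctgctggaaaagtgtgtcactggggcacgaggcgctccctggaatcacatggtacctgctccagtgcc
Tef: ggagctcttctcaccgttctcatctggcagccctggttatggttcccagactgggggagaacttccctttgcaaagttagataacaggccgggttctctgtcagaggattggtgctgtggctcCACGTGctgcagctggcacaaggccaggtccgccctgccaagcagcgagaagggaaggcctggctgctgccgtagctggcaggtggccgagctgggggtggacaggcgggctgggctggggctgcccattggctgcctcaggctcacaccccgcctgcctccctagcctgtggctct

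The Cry1 window also holds an E-box, at −60, and an E-box variant, at −79. An E-box was thus found in 3 of 9 members matched, Cry1, Per1 and Tef, against 8.09% of 27025 genes with a window. The variant was found in Cry1 and Nr1d1 and in 5.44% of genes, and the D-box in Per3 and in 1.23% of genes. The RORE core as first spelled was in no member and in 3.84% of genes, and the added form was in Arntl and in 0.352% of genes. The windows of Dbp, Clock and Nr1d2 held none of these letters. A match is a description of the letters in these windows.

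Reads counted on exons numbered 6351075 to 10044546 per mouse, so that 3 reads, the floor used here, equal 0.299 to 0.472 counts per 1000000 (CPM), a bound that covers counting error only. Adipocyte markers (Adipoq, Plin1, Lep, Fabp4, Cidec, Lipe, Pparg) summed to 10671 to 18351 CPM in every group, as the labelled tissue has. In protein-coding genes, introns held 36.0% to 37.5% of reads in the offspring of CD fathers, 40.7% to 48.4% in pLPD offspring and 36.3% to 37.9% in F0. Mitochondrial rRNA made up 9.29% to 10.5% of gene reads in the offspring of CD fathers, 13.5% to 18.2% in pLPD offspring and 9.59% to 12.4% in F0. Both measures separated the F1 groups without overlap, so that each moved with paternal diet, and the part of mitochondrial rRNA in the F1 values was not tested. With 1 library per mouse of whole tissue, fewer cells of a type and less RNA per cell cannot be told apart. Among the clock genes, 1 mouse stood apart from its group. In replicate 3 of the offspring of CD fathers, 6 of 10 members (Arntl, Per2, Per3, Nr1d2, Dbp and Tef) lay over 2-fold from both other mice of the group, against 1.15% of 14049 genes. No member lay so far from its group in any other F1 mouse. Its depth was 7351881 exon reads and its intron share 37.4%. F1 results are therefore given with and without this mouse. Since the values of the members themselves singled it out, what they show without it is a description, and their share of calls is not to be read against that of all genes.

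Some reads of these genes are shared with neighbours. Per3 lies wholly inside Camta1 on the same strand, over 41014 bases, and none of its intron reads and 41.2% to 50.6% of its exon reads were counted as unique. Its intron reads can therefore also come from Camta1 transcripts. Dbp overlaps the end of Sphk2 on the opposite strand over 737 bases (78.7% to 87.0% of exon reads unique), and Nr1d1 overlaps Thra over 1075 bases (90.1% to 93.5% unique). Whether strand was used in counting is not given in the sources used here, so reads of such pairs cannot be told apart. All exon reads of the other 7 members were unique.

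Levels per length were compared by RPKM, exon reads per kilobase of exon scaled to the library. In the CD-fed F0 mice Dbp and Nr1d1 stood highest, at 30.5 ± 4.39 and 30.2 ± 3.78 RPKM (SD, n = 2), and their ranges overlapped. Tef followed at 18.6 ± 1.88 RPKM, then Nr1d2 at 13.4 ± 2.16 and Per1 at 11.7 ± 2.32, which overlapped, then Per3 at 8.36 ± 1.31 and Per2 at 6.80 ± 1.44, which overlapped too. The lowest were Clock at 3.47 ± 0.0876 RPKM, Cry1 at 1.98 ± 0.376 and Arntl at 1.07 ± 0.0594, each apart from its neighbours. In LPD-fed F0 mice the order was Nr1d1 (22.1 RPKM), Dbp (16.5), Tef (11.4), Nr1d2 (9.81), Per1 (8.64), Per3 (5.32), Clock (4.75), Per2 (4.18), Arntl (1.58) and Cry1 (1.47), in which Clock overlapped both Per3 and Per2, and Arntl overlapped Cry1. In pLPD offspring Nr1d1, at 13.4 ± 1.23 RPKM (SD, n = 3), Dbp, at 12.6 ± 4.44, and Tef, at 10.9 ± 3.09, led, and Arntl was lowest at 1.26 ± 0.278. In the offspring of CD fathers the range of every gene overlapped that of the next, from Nr1d1 at 10.4 ± 1.93 RPKM to Per3 at 2.88 ± 1.71, and Arntl, at 3.33 ± 1.62, was not at the bottom.

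**Figure D1:**
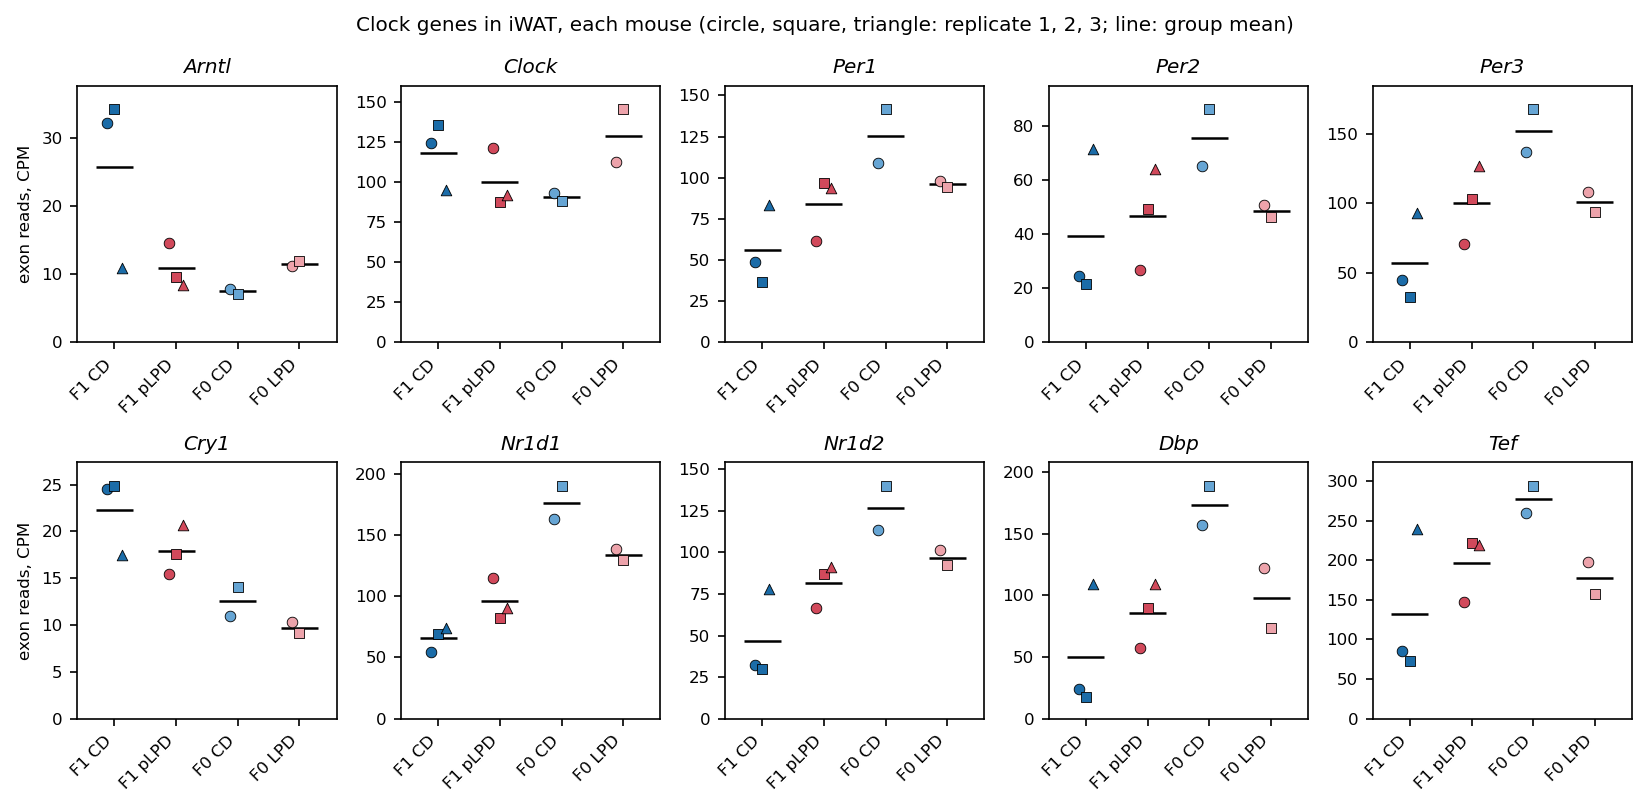
Exon reads, in CPM, of the 10 clock genes in each mouse. Points are mice, lines are group means and each panel has its own axis from 0. Replicate 3 of the offspring of CD fathers, a triangle, lies with the pLPD offspring for Dbp, at 109 CPM against 24.2 and 17.4 CPM in the other 2 mice of its group.

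The F1 comparison asks whether the diet of the father changed gene expression in offspring iWAT. No member passed the test on exon reads with all 6 mice (edgeR, adjusted p under 0.05), where 1.17% of 14049 genes did. Of the 10, 7 had higher and 3 lower values in pLPD offspring, with a median log2 fold change of 0.56 against 0.01 over all genes tested. At an unadjusted p under 0.05 there were 5 members (Arntl, Per1, Per3, Nr1d1 and Nr1d2) and 15.3% of genes, DESeq2 called 1 member (Nr1d1) and 2.67% of genes, and limma called none. The 2 paternal diets did not overlap for 1 member, Nr1d1, and for 20.1% of genes.

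Arntl (ENSMUSG00000055116, chr7:113207465-113314126, plus strand), the activating partner of CLOCK, measured 32.1, 34.1 and 10.9 CPM in the 3 offspring of CD fathers and 14.5, 9.63 and 8.42 CPM in the 3 pLPD offspring. Replicates 1 and 2 of the CD group were above all other mice, and replicate 3 lay among the pLPD offspring. The log2 fold change was −1.24 ± 0.36 (SE), adjusted p = 0.126. Clock (ENSMUSG00000029238, chr5:76209868-76304792, minus strand), whose product binds DNA together with ARNTL, measured 124, 135 and 94.6 CPM against 121, 87.2 and 92.0 CPM. Its groups overlapped, and the log2 fold change was −0.23 ± 0.15 (SE), adjusted p = 0.498.

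Dbp (ENSMUSG00000059824, chr7:45705088-45710203, plus strand), the PAR bZIP activator that is among the most rhythmic transcripts of most tissues, had the widest spread. It measured 24.2, 17.4 and 109 CPM in the offspring of CD fathers and 57.4, 90.0 and 109 CPM in pLPD offspring. Replicate 3 of the CD group was as high as the highest pLPD mouse, while the other 2 lay below every pLPD mouse. With all 6 mice the log2 fold change of Dbp was 0.78 ± 0.52 (SE), adjusted p = 0.515. Tef (ENSMUSG00000022389, chr15:81802421-81826861, plus strand), its paralogue, measured 85.5, 72.4 and 239 CPM against 147, 222 and 219 CPM. Here replicate 3 of the CD group was the highest of all 6 mice, and the log2 fold change was 0.58 ± 0.36 (SE), adjusted p = 0.485.

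Among the repressors, Nr1d1 (ENSMUSG00000020889, chr11:98767932-98775333, minus strand), which encodes REV-ERBα, came closest to the threshold. It measured 54.8, 68.9 and 74.3 CPM in the offspring of CD fathers and 115, 82.4 and 90.4 CPM in pLPD offspring. Every pLPD mouse was above every CD mouse, replicate 3 included. The log2 fold change was 0.55 ± 0.14 (SE), adjusted p = 0.0857, and the exact two-sided permutation test gave p = 0.1, the smallest that 3 against 3 mice allow. With the intron share of each library as a covariate, the log2 fold change of Nr1d1 was 0.21 ± 0.20 (SE), adjusted p = 0.818. In that fit 11 of 14049 genes passed. The intron share did not overlap between the F1 groups, so the share and paternal diet can hardly be told apart. Nr1d2 (ENSMUSG00000021775, chr14:18204054-18239127, minus strand), which encodes REV-ERBβ, measured 32.5, 29.7 and 78.1 CPM against 66.4, 86.9 and 91.5 CPM. Its groups overlapped through CD replicate 3, with a log2 fold change of 0.82 ± 0.29 (SE), adjusted p = 0.21.

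Per1, Per2 and Per3 encode the PER repressors. Per3 (ENSMUSG00000028957, chr4:151003652-151044665, minus strand) measured 44.5, 32.6 and 93.1 CPM in the offspring of CD fathers and 70.7, 103 and 127 CPM in pLPD offspring, a log2 fold change of 0.83 ± 0.31 (SE), adjusted p = 0.235. Per1 (ENSMUSG00000020893, chr11:69095217-69109960, plus strand) measured 48.8, 36.8 and 83.2 CPM against 61.2, 96.8 and 93.8 CPM, a log2 fold change of 0.59 ± 0.25 (SE), adjusted p = 0.293. In both genes CD replicate 3 was above the lowest pLPD mouse and the other CD mice were below it. Per2 (ENSMUSG00000055866, chr1:91415982-91459324, minus strand) measured 24.3, 21.6 and 71.5 CPM against 26.5, 49.2 and 64.1 CPM, with CD replicate 3 the highest of all 6, and its log2 fold change was 0.27 ± 0.41 (SE), adjusted p = 0.811. Cry1 (ENSMUSG00000020038, chr10:85131700-85185064, minus strand), the partner of PER in repression and a late gene of the loop, measured 24.6, 24.9 and 17.5 CPM against 15.5, 17.6 and 20.7 CPM. The groups overlapped, with a log2 fold change of −0.31 ± 0.17 (SE), adjusted p = 0.421.

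Among the offspring of CD fathers the clock genes spread more widely than the median gene. The highest mouse over the lowest was 2.71-fold in the median of the 10 members and 1.22-fold in the median of all genes tested. Dbp spread 6.15-fold, Tef 3.29-fold, Per2 3.25-fold and Arntl 3.04-fold, while Nr1d1 spread only 1.35-fold. In pLPD offspring the members' median was 1.54-fold against 1.24-fold for all genes, in CD-fed F0 mice 1.21-fold against 1.10-fold, and in LPD-fed F0 mice 1.11-fold against 1.11-fold. In pLPD offspring, replicate 1 was the lowest mouse for Per1, Per2, Per3, Cry1, Nr1d2, Dbp and Tef, and the highest for Arntl, Clock and Nr1d1. The heat map shows the pattern per mouse.

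**Figure D2:**
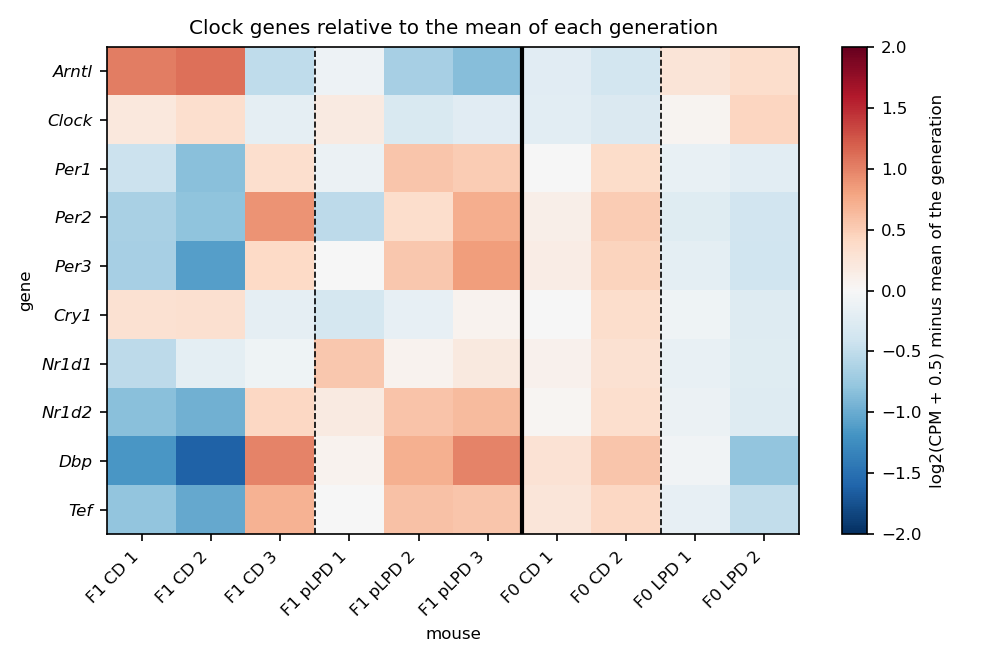
Levels of the 10 clock genes in each mouse, as log2(CPM + 0.5) minus the mean of the mice of the same generation (color, red above and blue below). Offspring of CD fathers 1 and 2 are red for Arntl and blue for Dbp, Tef, Nr1d2 and the Per genes, and CD replicate 3 has the opposite colors.

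Without CD replicate 3, which the members' own values had set apart, the F1 comparison gave other calls. Of the 10 members, 7 then passed (6 up, 1 down). The share over all genes was 3.56% of 14322, and nothing is read from the difference between these shares. Dbp had a log2 fold change of 2.06 ± 0.24 (SE), adjusted p = 0.000771, and Tef of 1.32 ± 0.17 (SE), adjusted p = 0.00121. Nr1d2 followed with 1.40 ± 0.15, Per3 with 1.39 ± 0.21, Per1 with 0.99 ± 0.19 and Nr1d1 with 0.64 ± 0.15. Arntl was the negative one among those 7, at −1.60 ± 0.19 (SE), adjusted p = 0.000876. Per2, at 1.03 ± 0.27 (SE), adjusted p = 0.0631, Cry1, at −0.45 ± 0.15 (SE), adjusted p = 0.139, and Clock, at −0.37 ± 0.13 (SE), adjusted p = 0.166, did not pass. Leaving out any other F1 mouse left 0 members past the threshold.

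The F0 comparison asks how the LPD acts on the iWAT of the males that ate it. On exon reads 3 of 10 members passed the test, Per2, Per3 and Tef, against 2.50% of 14581 genes, and all 3 fell, as did 1.32% of genes. The direction was negative for 8 members and positive for Arntl and Clock, with a median log2 fold change of −0.39 against 0.00 over all genes tested. The 2 diets did not overlap for 10 of 10 members and for 46.5% of genes. At an unadjusted p under 0.05 there were 9 members, all but Cry1, and 15.7% of genes.

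Tef measured 260.1 and 294 CPM in the CD-fed and 198 and 157 CPM in the LPD-fed males, and fell with a log2 fold change of −0.64 ± 0.13 (SE), adjusted p = 0.0414. Per2 measured 64.9 and 86.0 CPM against 50.5 and 46.2 CPM, a log2 fold change of −0.64 ± 0.13 (SE), adjusted p = 0.0464. Per3 measured 137 and 168 CPM against 108 and 94.0 CPM, a log2 fold change of −0.59 ± 0.12 (SE), adjusted p = 0.0436. Each LPD-fed mouse lay below each CD-fed mouse for these 3 genes. The calls depend on the fit: no member passed in a fit of all 4 groups with 1 estimate of the spread, where 175 of 15111 genes did. Leaving out 1 mouse leaves 1 mouse in a group, so only effect sizes are given. They moved with the mouse left out, from −0.82 to −0.49 for Tef, −0.83 to −0.42 for Per2 and −0.73 to −0.43 for Per3.

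Dbp had the largest negative value, with 157 and 189 CPM in CD-fed and 122 and 73.6 CPM in LPD-fed males. LPD replicate 2 lay well below replicate 1, and the log2 fold change was −0.82 ± 0.20 (SE), adjusted p = 0.0771, not past the threshold. Arntl measured 7.83 and 7.09 CPM against 11.1 and 11.9 CPM, a log2 fold change of 0.63 ± 0.18 (SE), adjusted p = 0.11. Clock measured 92.9 and 87.8 CPM against 112 and 145 CPM, a log2 fold change of 0.51 ± 0.12 (SE), adjusted p = 0.0731. For these activators both LPD-fed mice were above both CD-fed mice.

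The other repressors lay lower in LPD-fed males without passing. Nr1d1 measured 163 and 190.3 CPM against 139 and 129.6 CPM (log2 fold change −0.40 ± 0.10 (SE), adjusted p = 0.0934). Nr1d2 measured 114 and 140.1 CPM against 101 and 92.4 CPM (log2 fold change −0.39 ± 0.12 (SE), adjusted p = 0.13). Per1 measured 109 and 142 CPM against 98.0 and 94.2 CPM (log2 fold change −0.38 ± 0.12 (SE), adjusted p = 0.166). In all 3 the mice of the 2 diets did not overlap. Cry1 measured 11.0 and 14.1 CPM against 10.3 and 9.12 CPM, with a log2 fold change of −0.37 ± 0.19 (SE), adjusted p = 0.393.

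**Figure D3:**
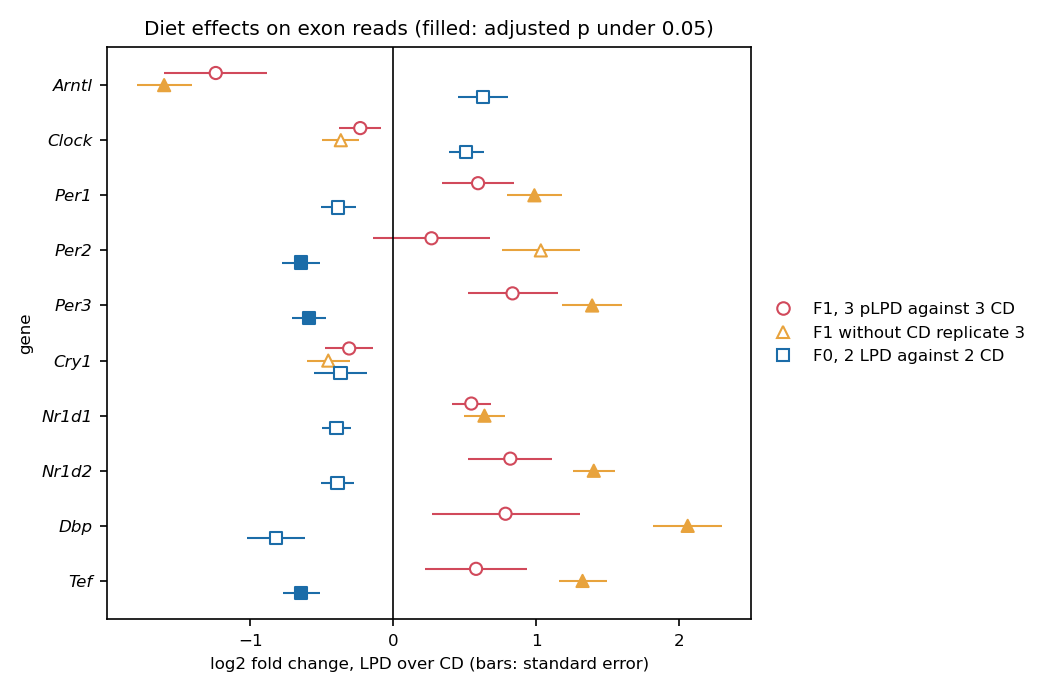
Log2 fold changes of exon reads, LPD over CD, with standard errors, for F1 with all 6 mice (circles), F1 without CD replicate 3 (triangles) and F0 (squares). Filled symbols have an adjusted p under 0.05. Dbp is at 0.78, 2.06 and −0.82 in these fits, and Arntl at −1.24, −1.60 and 0.63.

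The diet effects of the 2 generations were then set against each other in a fit of all 10 libraries. With F0 subtracted from F1, 8 members had a positive and 2 a negative difference, and 1 passed the test, Nr1d1, against 1.25% of 15111 genes. On the log2 scale the difference for Nr1d1 was 0.93 ± 0.20 (SE), adjusted p = 0.046. This call was lost in 1 alternative fit of all 10 libraries. It was lost when any of 8 mice was left out in turn and kept without CD replicate 3 of F1 or pLPD replicate 1. At an unadjusted p under 0.05 there were 7 members and 12.5% of genes. Differences of larger size did not pass: Arntl −1.88 ± 0.55 (SE), adjusted p = 0.13, Dbp 1.60 ± 0.76 (SE), adjusted p = 0.412 and Per3 1.42 ± 0.46 (SE), adjusted p = 0.176. Without CD replicate 3 of F1, 9 of 10 members passed, all but Cry1, where 2.61% of 15122 genes did, again as a description. In that fit the differences ranged from −2.23 ± 0.29 for Arntl to 2.87 ± 0.38 for Dbp. Which of generation, age, library set or kind of exposure (the father's diet or the mouse's own) goes with a difference cannot be told apart. The hour of killing is not given either.

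Intron reads come mainly from unspliced RNA and were tested apart. In F1, 1 of 10 members passed, Nr1d2, against 0.424% of 13456 genes. Nr1d2 intron reads measured 52.9, 52.1 and 84.7 CPM in the offspring of CD fathers and 116, 104 and 132 CPM in pLPD offspring. Unlike its exon reads, these did not overlap, and they rose with a log2 fold change of 0.89 ± 0.17 (SE), adjusted p = 0.0477. The call was lost when any F1 mouse other than CD replicate 3 was left out. Arntl intron reads measured 177, 200.1 and 129.7 CPM against 129, 114 and 100.3 CPM, a log2 fold change of −0.56 ± 0.14 (SE), adjusted p = 0.108. They were also lower in each pLPD mouse than in each CD mouse, the margin over CD replicate 3 being small. Nr1d1 intron reads measured 9.83, 15.4 and 18.1 CPM against 25.2, 14.0 and 16.3 CPM. Unlike its exon reads, these overlapped, with a log2 fold change of 0.36 ± 0.26 (SE), adjusted p = 0.594.

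Dbp intron reads measured 7.11, 6.17 and 14.4 CPM in the offspring of CD fathers and 12.3, 15.8 and 16.3 CPM in pLPD offspring, a log2 fold change of 0.69 ± 0.29 (SE), adjusted p = 0.323. Tef intron reads measured 34.3, 34.3 and 102 CPM against 68.8, 82.7 and 116 CPM, a log2 fold change of 0.65 ± 0.35 (SE), adjusted p = 0.446. CD replicate 3 was the high mouse of its group for both genes, as in exon reads. Without that mouse 5 members passed on intron reads, where 1.37% of 13850 genes did, as a description. They were Per3 (2.00 ± 0.25), Tef (1.37 ± 0.19), Nr1d2 (1.16 ± 0.12), Dbp (1.15 ± 0.24) and Arntl (−0.72 ± 0.11).

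In F0, intron reads of 3 of 10 members passed, Dbp, Per3 and Tef, against 3.48% of 14334 genes, and all 3 fell, as did 2.12% of genes. Dbp intron reads measured 27.5 and 33.1 CPM in CD-fed and 15.0 and 16.1 CPM in LPD-fed males, a log2 fold change of −0.96 ± 0.15 (SE), adjusted p = 0.00914. On introns the 2 LPD-fed mice were close to each other, where their exon reads differed 1.66-fold. Tef intron reads measured 128 and 152 CPM against 102 and 83.6 CPM, a log2 fold change of −0.58 ± 0.12 (SE), adjusted p = 0.0286. Per3 intron reads measured 184 and 201 CPM against 134 and 102 CPM, a log2 fold change of −0.70 ± 0.12 (SE), adjusted p = 0.0147, and Camta1 transcripts can also give these reads. Leaving out 1 mouse leaves 1 mouse in a group, so only the effect sizes of such fits are given for these genes. They were −1.08 to −0.82 for Dbp, −0.73 to −0.44 for Tef and −0.91 to −0.51 for Per3.

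Per2 intron reads measured 95.3 and 124 CPM in CD-fed and 75.0 and 78.3 CPM in LPD-fed males, a log2 fold change of −0.51 ± 0.12 (SE), adjusted p = 0.0574. Clock intron reads measured 86.7 and 82.3 CPM against 104 and 117 CPM, a log2 fold change of 0.39 ± 0.09 (SE), adjusted p = 0.0583. Neither passed, though the mice of the 2 diets did not overlap. The smallest differences on introns were those of Per1 in F1, with a log2 fold change of 0.05 ± 0.28 (SE), and of Cry1, with 0.08 ± 0.13 in F1 and −0.03 ± 0.17 in F0. Over all members the median log2 fold change on introns was 0.42 in F1 and −0.31 in F0, against −0.00 and −0.01 over all genes tested.

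**Figure D4:**
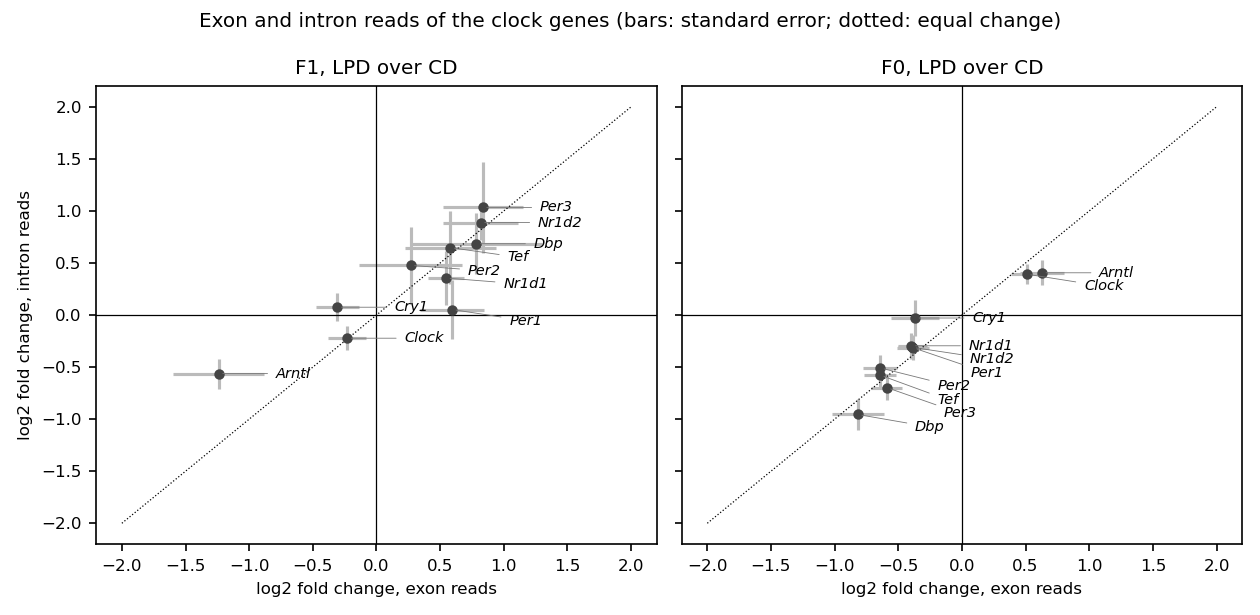
Log2 fold change, LPD over CD, of exon reads (x axis) and intron reads (y axis) of the 10 clock genes in F1 and F0, with standard errors. Distance from the dotted line is the difference between both kinds of read. Among the genes off the line are Arntl (−1.24 on exons and −0.56 on introns) and Per1 (0.59 and 0.05) in F1, and Cry1 (−0.37 and −0.03) in F0.

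The members also differed in how their reads divide between exons and introns. Arntl had 0.123 to 0.281 exon reads per intron read, fewer than any other member, and its 54 to 295 exon reads per mouse stood beside 395 to 1102 intron reads. Nr1d1, a short gene, had 6.10 to 9.25, Dbp 4.41 to 12.2 and Tef 2.87 to 3.92 exon reads per intron read. Per1 had 2.79 to 5.33, Per3 1.10 to 2.52, Clock 1.19 to 1.94, Per2 0.925 to 1.64, Nr1d2 0.768 to 1.43 and Cry1 0.523 to 1.43. These ratios also depend on the length of the introns.

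Dbp and Arntl are at opposite phases of the loop, and the reads of 1 over the other can be formed within each mouse without any scaling between libraries. Dbp exon reads per Arntl exon read were 0.752, 0.508 and 10.0 in the offspring of CD fathers and 3.95, 9.35 and 12.9 in pLPD offspring. In F0 they were 20.0 and 26.6 in CD-fed and 11.0 and 6.17 in LPD-fed males. CD replicates 1 and 2 of F1 had fewer Dbp than Arntl reads, and the other 8 mice had more. On introns the ratio was 0.0401, 0.0309 and 0.111 in the offspring of CD fathers and 0.0954, 0.139 and 0.162 in pLPD offspring. It was 0.326 and 0.479 in CD-fed and 0.162 and 0.147 in LPD-fed F0 males. On introns as on exons, CD replicates 1 and 2 of F1 were the lowest of the 10 mice and the CD-fed F0 males the highest, and in both F0 ratios the diets did not overlap.

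**Figure D5:**
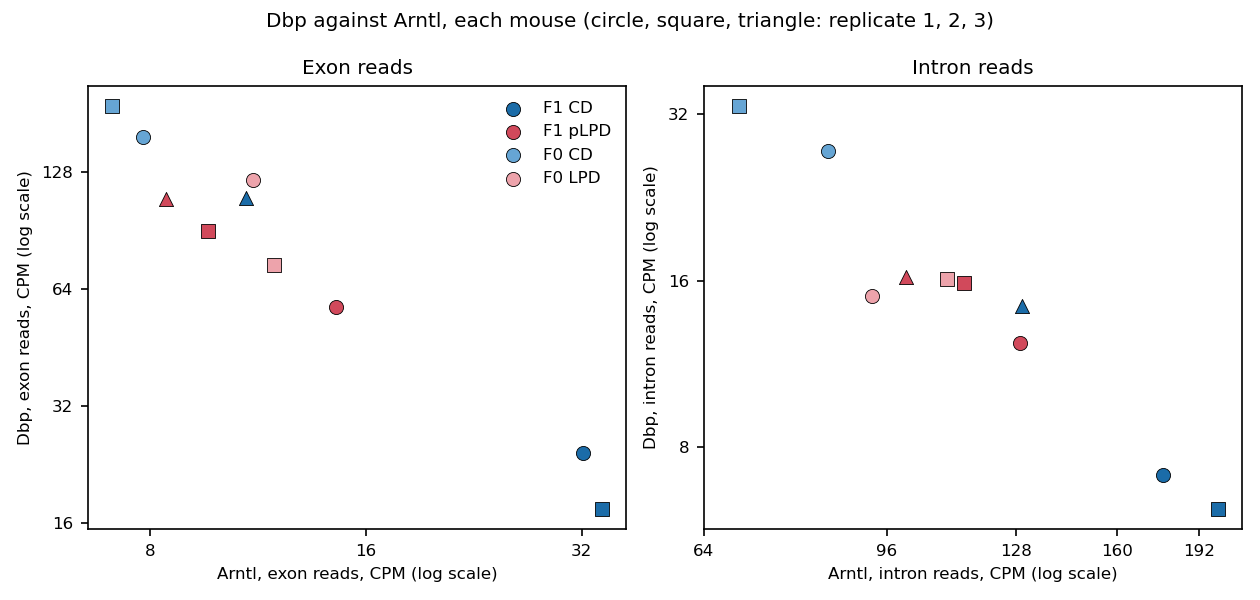
Dbp against Arntl in each mouse, in CPM on log axes, for exon reads (left) and intron reads (right). The mice run from CD-fed F0 males at the upper left (Dbp 157 and 189 CPM on exons) to F1 offspring of CD fathers 1 and 2 at the lower right (24.2 and 17.4 CPM).

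Across mice the members moved as 2 blocks, given here as a description over 10 libraries that share scaling, with each gene centred on the mean of its generation. The correlation (Pearson's r of log2 CPM) of Dbp was 0.99 with Tef, 0.97 with Per3, 0.97 with Nr1d2, 0.95 with Per1 and 0.91 with Per2. It was −0.97 with Arntl and −0.87 with Clock. Over the 8 libraries left without CD replicates 1 and 2 of F1, the mice farthest from the median, Dbp still had 0.97 with Tef, 0.90 with Per3, −0.88 with Arntl and −0.95 with Clock. Cry1 and Nr1d1 belonged to neither block firmly: Dbp with Cry1 went from −0.35 to 0.87, and Dbp with Nr1d1 from 0.61 to 0.12, when those 2 libraries were left out.

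Among 11293 genes with at least 5 CPM on average in both generations, the 5 genes most like Dbp were Tef, Per3, Nr1d2, Bhlhe41 (r = 0.96) and Ankrd12 (0.96). The 5 most opposed were Cd93 (−0.99), Cdh5 (−0.98), E2f3 (−0.97), Arntl (−0.97) and Dtx4 (−0.96). Those most like Arntl were Cd93 (0.98), Dtx4 (0.97), Cdh5 (0.96), E2f2 (0.96) and Pcdh1 (0.96), and those most opposed were Nr1d2 (−0.99), Per3 (−0.98), Slc25a33 (−0.98), Tef (−0.97) and Dbp (−0.97). Members of the loop thus took 3 of the 5 closest places for Dbp and 4 of the 5 most opposed for Arntl. On the other sides, Arntl was the only member among the 5 most opposed to Dbp, and no member was among the 5 most like Arntl. Cd93, a surface receptor of endothelial cells, measured 108, 119 and 65.2 CPM in the offspring of CD fathers and 78.1, 70.0 and 61.1 CPM in pLPD offspring. In F0 it measured 50.5 and 46.2 CPM in CD-fed and 56.6 and 62.7 CPM in LPD-fed males. As for Arntl, CD replicates 1 and 2 were its highest mice, and its r with Dbp over the 8 libraries was −0.96.

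A list of 22 other genes of the clock and its outputs was examined beside the members. On exon reads in F1 none of the 21 tested passed, 13 were positive and 8 negative, and the median log2 fold change was 0.15 against 0.01 over all genes. The largest values were those of Npas2, Ciart and Hlf. Npas2, a paralogue of Clock that also pairs with ARNTL, measured 13.0, 14.5 and 2.28 CPM in the offspring of CD fathers and 3.22, 1.08 and 2.03 CPM in pLPD offspring, a log2 fold change of −2.24 ± 0.59 (SE), adjusted p = 0.0996. As for Arntl, CD replicates 1 and 2 were high and replicate 3 was not. Ciart, a repressor of the loop, had a log2 fold change of 1.18 ± 0.48 (SE), adjusted p = 0.273, and Hlf, the remaining PAR bZIP gene, of 0.68 ± 0.28 (SE), adjusted p = 0.276. Without CD replicate 3, and with the same limit, Npas2 (−2.70 ± 0.33), Ciart (1.91 ± 0.47), Hlf (1.11 ± 0.22), Bhlhe41 (0.82 ± 0.19) and Nfil3 (−0.77 ± 0.16) passed. Intron reads of the list gave no call in F1 among 19 tested, the largest values being those of Npas2 (−2.30 ± 0.50), Nfil3 (−1.10 ± 0.31) and Hlf (0.91 ± 0.35).

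In F0, 3 of the 22 other clock genes passed on exon reads and fell, Usp2 and Wee1 among them. Usp2, a deubiquitinating enzyme with a rhythmic transcript, had a log2 fold change of −0.76 ± 0.16 (SE), adjusted p = 0.0464, and Wee1, a cell-cycle kinase under E-box control, of −0.83 ± 0.17 (SE), adjusted p = 0.0419. The list had 15 negative and 7 positive values, with a median of −0.21. On introns Nampt (−0.51 ± 0.09), the rate-limiting enzyme of NAD salvage, fell. There Usp2 was at −0.04 ± 0.18 (SE), adjusted p = 0.945, with overlapping groups, and Wee1 at −0.87 ± 0.20 (SE), adjusted p = 0.0519. Noct, which encodes the rhythmic protein nocturnin, rose: its intron reads measured 47.1 and 40.6 CPM against 82.1 and 111 CPM, a log2 fold change of 1.15 ± 0.15 (SE), adjusted p = 0.00315. In the difference between generations 1 of the 22 passed, Rora, an activator at RORE elements, with 0.72 ± 0.13 (SE), adjusted p = 0.019. Rora measured 80.1, 75.5 and 76.6 CPM in the offspring of CD fathers, 96.9, 96.7 and 106 CPM in pLPD offspring, 119 and 138 CPM in CD-fed and 97.7 and 103 CPM in LPD-fed males, and unlike for Dbp, CD replicate 3 lay with its group.

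Other gene lists moved beside the members, and their part in the members' values was not tested. Glucocorticoid responsive genes (Fkbp5, Tsc22d3, Zbtb16, Sgk1, Klf9, Ddit4) summed to 436, 398 and 629 CPM in the offspring of CD fathers and 417, 563 and 607 CPM in pLPD offspring. CD replicate 3 was the high mouse of its group for this list and for every other list given below. In that group immediate early genes summed to 164, 162 and 199 CPM, and adipocyte markers to 10973, 10671 and 12024 CPM. In F0 the glucocorticoid responsive genes summed to 651 to 855 CPM in CD-fed and 540.2 to 636 CPM in LPD-fed males, with 0 of 6 called on exons and 3 of 6 (Fkbp5, Zbtb16 and Klf9) down on introns. Of 8 immediate early genes, which respond to stimuli within minutes, 2 rose in F0 (Fos and Jun), their sum being 126 to 128 CPM in CD-fed and 200.1 to 213 CPM in LPD-fed males. Of markers of other cells, 3 of 6 of skeletal muscle fell in F0 (summed 1158 to 1744 against 662 to 901 CPM) and 3 of 3 of brown or beige fat rose (109.8 to 229 against 579 to 677 CPM in sum). In F1, 3 of 4 macrophage markers fell (336 to 394 against 228 to 252 CPM), as did Krt8 and Krt18 of 5 epithelial markers (8.56 to 12.8 against 0.153 to 3.25 CPM in sum, with Krt5 at 0 in all pLPD offspring). Of 6 B and T lymphocyte markers, 1 rose in F0 (Ms4a1; 258 to 289 against 327 to 354 CPM in sum) and none was called in F1 (279 to 321 against 282 to 402 CPM). None of 7 adipocyte markers was called on exons in either generation, and on F0 introns 3 rose (Adipoq, Fabp4 and Cidec). No gene of the glucocorticoid, immediate early, muscle or brown fat lists was called on exons in F1. Of the macrophage markers only Cd163 was called in F0, where it fell, and no epithelial marker had enough reads to be tested there.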

How the data were processed

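RNA was prepared from iWAT of 10 mice, depleted of rRNA and sequenced by the authors, who mapped reads to mm10 in CLC Genomics Workbench 9.5.1. The annotation release and the strand setting are not given in the sources used here. The deposited counts are the authors' numbers of exon, intron and unique reads per gene, not normalized. The deposited RPKM values are exon reads scaled by the authors to exon length and library total. Here, exon counts of each generation were fitted with edgeR 4.0.16 in R 4.3.3 (filterByExpr, TMM, two-sided quasi-likelihood test, Benjamini-Hochberg adjustment over all genes, threshold 0.05). Intron counts were fitted likewise with their own TMM factors, and the difference between generations in a fit of all 10 libraries. The SE is the log2 fold change over the square root of F. CPM values use TMM over all libraries. The scripts were tested on simulated data.

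The members and lists were chosen with earlier results of these data known. All 10 members are named, other clock genes (except 1, whose values are not reported here) where they passed or, where none did, the 3 with the largest change, and for likeness the 5 nearest genes per side. Additional genes called without CD replicate 3 and the added RORE form were chosen after their values were seen. DESeq2 1.42.0, its size factors, limma 3.58.1, no filter, a replicate block, unique reads, exon and intron reads together, exon library sizes for introns, the intron share as a covariate, all groups in 1 fit and each mouse left out were alternatives. P-values set each difference against the spread between the mice of a fit. Which father each offspring had is not given in the sources used here, so spread between fathers may not be covered. Replicate numbers come from the labels and are not stated to pair mice.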

Additional observations from a re-analysis of the deposited data

Results flagged for a closer look

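The diet effect differed between F1 and F0, by the test of that difference over all genes (edgeR, 10 libraries), for 1 member and 1 other clock gene. For Nr1d1 the difference (F1 minus F0) was 0.93 ± 0.20 on the log2 scale (SE, adjusted p = 0.0460), higher in 3 of 3 pLPD offspring than in every offspring of a CD father and lower in 2 of 2 LPD-fed males than in both CD-fed males. For Rora it was 0.72 ± 0.13 (SE, adjusted p = 0.0190), with the same order of mice in each generation. Leaving out 1 mouse at a time, the adjusted p of Nr1d1 ranged from 0.0212 to 0.251. Both differences are those of exon reads. On introns the F1 groups overlapped for both genes. Nr1d1 introns had log2 fold changes of 0.36 ± 0.26 (SE, adjusted p = 0.594) in F1 and −0.30 ± 0.12 (SE, adjusted p = 0.298) in F0. Rora introns had 0.09 ± 0.08 (SE, adjusted p = 0.690) in F1 and −0.07 ± 0.07 (SE, adjusted p = 0.745) in F0. Generation, age, library set and kind of exposure (the father's diet or the mouse's own) cannot be told apart in the exon differences, and the hour of killing is not given.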

How the results depend on the processing

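The number of members past the threshold depended on the processing. On F1 exon reads it was 0, where 164 of 14049 genes passed. It became 1 with DESeq2 (375 of 14049 genes) and 7 with no filter on low counts (798 of 22256). With 1 mouse left out it was 7 without CD replicate 3 (510 of 14322 genes) and 0 without any other (18 to 162 genes). On F0 exon reads it was 3, where 364 of 14581 genes passed, and became 9 with no filter (1343 of 22064). It became 0 with all 4 groups in one fit (175 of 15111 genes) and with exon and intron reads together (295 of 16670). It was also 0 with limma on RPKM + 0.1 (82 of 14581 genes) and on RPKM + 1 (47 of 14581). For the difference between generations it was 1 (189 of 15111 genes), and became 2 with DESeq2 (353 of 15111) and 9 without CD replicate 3 of F1 (395 of 15122). The call of Nr1d1 was lost in 1 alternative fit of all 10 libraries. It was also lost in most of the other fits with 1 mouse left out, as given above. On introns it was 1 in F1 (5 with no filter, 0 to 5 with 1 mouse left out) and 3 in F0 (7 with no filter, 1 to 8 with 1 mouse left out). Leaving out an F0 mouse leaves 1 mouse in its group, which the fit assumes to vary like the other groups. Nothing is therefore read from the F0 intron range of such fits, and their F0 exon calls are not given. With a replicate block the counts were 3 (Per3, Arntl and Nr1d2), 9, 2, 3 and 5 in the same order. Calls over all genes rose as well, to 260, 1391, 267, 100 and 803, from 164, 364, 189, 57 and 499. Over all genes, deviations of mice with the same number correlated at 0.07, 0.00 and 0.02 in F1 and 0.06 in F0. With 2 mice per F0 group both numbers give the same value by construction. A correlation over all genes cannot tell whether mice of 1 number share something that acts on few genes. The direction reversed for Cry1 on F1 exons with the intron share as a covariate (0.026). Under that covariate Nr1d1 moved to 0.21, Arntl to −1.73, Clock to −0.57, Nr1d2 to 1.07, Per1 to 1.001, Per2 to 1.01, Per3 to 1.30, Dbp to 1.24 and Tef to 0.91. No member passed, and 11 of 14049 genes did, against 164 without the covariate. The intron share did not overlap between the F1 groups, so this fit can hardly tell the share and paternal diet apart. With 1 mouse left out, the direction reversed in part of the fits for Per2 on F1 exons (−0.031 to 1.03), Cry1 in the difference between generations (−0.14 to 0.23), Per1 on F1 introns (−0.15 to 0.36) and Cry1 on introns of F1 (−0.0048 to 0.13) and F0 (−0.24 to 0.18). The causes were not tested. The RPKM + 0.1 scale moved the median of all genes by −0.15 in F1. Arntl, with 54 to 295 exon reads per mouse, and Cry1, with 78 to 215, are the members that depth limits most.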
